A study of Homo sapiens with 9 samples.

Results

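The BAG family comprises 6 human genes, BAG1 to BAG6, named for the BAG domain. All 6 were found among the 19775 genes measured, and they were taken as every probe set whose platform annotation holds one of their symbols, whatever its values. There were 17 such probe sets, 0 of them shared with another gene. BAG3 had 1 probe set, BAG1, BAG2, BAG4 and BAG5 had 3 each, and BAG6 had 4.

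The BAG domain binds the ATPase domain of HSP70 and speeds the exchange of ADP for ATP, which lets the chaperone release its client. BAG proteins that bind HSP70 in this way are nucleotide exchange factors and cochaperones, and their other domains bring HSP70 to different tasks. This does not hold for every member, as the BAG region of BAG6 is not a canonical BAG domain. BAG3 is the member known to be induced by heat through heat shock factor 1, and it links HSP70 to small heat shock proteins and to autophagy of damaged proteins. BAG1 directs HSP70 clients to the proteasome and binds BCL2, BAG2 inhibits the ubiquitin ligase STUB1 (CHIP), BAG4 is the silencer of death domains that binds the TNF receptor, BAG5 carries several BAG domains, and BAG6 guards tail-anchored membrane proteins before their insertion.

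Expression was measured in U937, an established human lymphoma line with features of monocytes, on 9 Affymetrix arrays with 1 array per condition. The control cells were cultured at 37 °C without heat. The other 8 cultures were heated for 15 min at 42 °C or at 44 °C and returned to 37 °C for 0, 1, 3 or 6 h. The control label gives no time, so effects of time in culture cannot be told apart from those of heat at 1, 3 and 6 h, and all 8 comparisons with the control share its 1 array. Values are MAS5 signals that were multiplied by 1 factor per array to a trimmed mean of 100. Signals of 12.5 or lower were set to that floor before log2 was taken. A gene stands for its brightest probe set unless another is named, and a signal is read only against the same probe set on other arrays. With no replicates no test was possible and no p-value is given. A gene is said to have risen or fallen when it differed by 2-fold or more, a rule of size that does not account for error between arrays.

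Deposited trimmed means ran from 101 to 211, scale factors from 0.474 to 0.989, and the share of probe sets above the floor ran from 48.3% to 52.6%. The ratio of 3′ to 5′ signal ran from 1.18 to 1.36 for ACTB. Of 13 measured myelomonocytic markers 10 lay above the floor on all arrays, while MPO, CD14 and FCGR1A lay at or below it on all. The summed signal of this list was 14545 in the control and 11163 to 16903 in heated cells. Among them CEBPA fell at 1 and 3 h after 42 °C and at 3 and 6 h after 44 °C. Its lowest log2 fold was -1.89, at 3 h after 42 °C. Of 5 T cell markers CD3E, CD3G and CD8A were below the floor on every array, while CD2 was above it on 5 arrays and CD3D on 2. Of 4 measured B cell markers CD79A and PAX5 were above the floor on all 9 arrays, and the summed signal of the list was 109 in the control and 82.4 to 153 in heated cells. The hemoglobin gene HBB, the 1 erythroid marker measured, was below the floor in the control and passed 2-fold on 3 heated arrays. Of 7 markers of epithelium and fibroblasts EPCAM, CDH1 and COL1A2 were below the floor on every array, while KRT8 was above it on 6 arrays and KRT18 on 5. The summed signal of these 7 markers was 87.8 in the control and 104 to 366 in heated cells, where COL1A1, named like the other markers after its values were seen, went from a signal of 8.37 in the control to 268 at 6 h after 42 °C. The part of these markers in the BAG values was not tested. The spread between arrays was described from the control and the 0 h arrays at both temperatures, in 10 bins of mean signal. The 99th percentile of the size of their log2 differences was 1.1 in the bin of BAG3 and BAG6, 1.13 in that of BAG1, BAG4 and BAG5, and 1.34 in that of BAG2. That spread includes the early response to heat.

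The promoter of BAG3 is shown because this member alone passed 2-fold by its brightest probe set. A stretch of the BAG2 promoter is shown because it alone, among the BAG promoters listed, held the heat shock motif searched for. RefSeq promoters on GRCh38.p14 were listed for 5 of the 6 genes, in 7 entries of 300 bases each (250 before the start and 50 after it). BAG4 had no entry and was not searched. The BAG3 sequence covers the 250 bases before the start, chr10:119651130-119651379 on the plus strand. Its capitals mark the AP-1 motif TGANTCA and the GC box GGGCGG on either strand. The BAG2 stretch of 60 bases lies at chr6:57172176-57172235 on the plus strand, and its capitals mark GAANNTTC, a pair of inverted units of the heat shock element.
BAG3: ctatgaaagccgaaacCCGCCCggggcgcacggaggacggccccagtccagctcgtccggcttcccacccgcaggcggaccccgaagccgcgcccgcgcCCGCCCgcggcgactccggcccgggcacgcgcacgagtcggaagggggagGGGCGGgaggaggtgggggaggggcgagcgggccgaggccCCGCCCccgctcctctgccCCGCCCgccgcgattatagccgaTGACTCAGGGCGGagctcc
BAG2: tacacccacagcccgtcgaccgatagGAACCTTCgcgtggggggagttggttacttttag

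Heat shock factors bind repeats of the unit nGAAn in alternating orientation. A pair of such units, GAANNTTC or TTCNNGAA (each reads the same on both strands), occurred in 13.5% of all 35116 promoters of the table. Of the 5 BAG genes listed there 1 held it, BAG2, where the match began 124 bases before the start. A run of 3 alternating units at the same spacing, on either strand, occurred in 0.490% of all promoters and in 0 of these 5 BAG genes. The 300 bases listed for BAG3 held neither. No match says only that these letters are not in this window. BAG3 had 1 match to the AP-1 motif, 19 bases before the start and directly followed by a GC box. TGANTCA occurred in 7.71% of all promoters and in no other BAG entry. The BAG3 window held 6 matches to GGGCGG on either strand, that of BAG1 held 5, that of BAG2 2, the BAG5 entries 5 and 1, and the BAG6 entries 0 and 1. At least 1 match occurred in 45% of all promoters. The AP-1 motif and the GC box were picked after the sequences were read. The CCAAT box (CCAAT) and the TATA box (TATAAA) were added to the search too. They occurred in no BAG entry, against 34.6% and 11.5% of all promoters. The G and C content was 78.7% and 77.7% in the BAG5 entries, 75.3% for BAG3, 66.0% for BAG1, 59.0% for BAG2, and 58.7% and 66.3% in the BAG6 entries. Of all promoters 91.0% had a lower content than that of BAG3, and 96.0% and 94.6% a lower one than the BAG5 entries.

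BAG3 rose on 7 of the 8 heated arrays and was the only BAG gene to differ by 2-fold from the control by its brightest probe set. Its scaled signal (probe set 217911_s_at) was 176 in control cells. After 42 °C it was 1591 at 0 h, 2999 at 1 h, 5118 at 3 h and 3347 at 6 h. After 44 °C it was 156 at 0 h, 869 at 1 h, 2869 at 3 h and 3602 at 6 h. All 4 arrays after 42 °C thus lay above the control from the end of heating, whereas after 44 °C the first array stood at the level of the control and the next 3 stood above it. The highest of the 9 values was at 3 h after 42 °C. Without scaling of the arrays the highest was instead at 6 h after 44 °C, with a log2 fold over the control of 4.56. In bulk cultures a change in the number of cells that hold a transcript and a change in its amount per cell cannot be told apart.

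**Figure D1:**
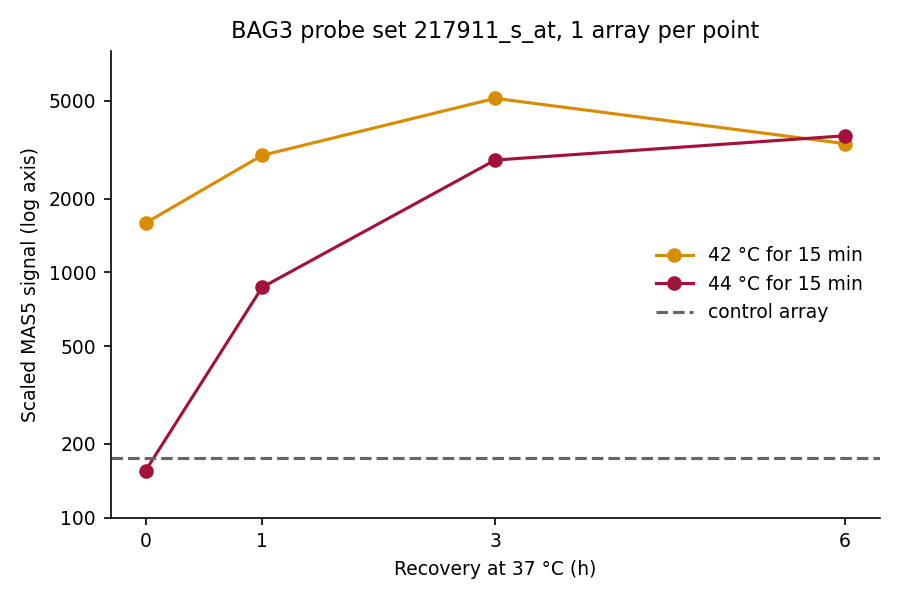
Scaled MAS5 signal of the BAG3 probe set (log axis) against hours of recovery at 37 °C for 42 °C and 44 °C, with 1 array per point and the control array as a dashed line. The 42 °C series starts at 1591 and peaks at 5118 at 3 h, while the 44 °C series starts at 156, below the control value of 176, and reaches 3602 at 6 h.

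Against the control, BAG3 was 9.05-fold higher directly after 42 °C, 17.1-fold at 1 h, 29.1-fold at 3 h and 19.0-fold at 6 h. Among 19775 genes ordered from the largest rise, these changes ranked 5, 4, 4 and 7. After 44 °C its log2 fold was -0.17 at 0 h, and it was 4.95-fold higher at 1 h, 16.3-fold at 3 h and 20.5-fold at 6 h, with ranks of 8, 4 and 7 for the last 3 arrays. BAG3 was thus among the 8 largest rises on every heated array but the one taken directly after 44 °C. Without scaling of the arrays the log2 fold after 42 °C was 4.15 in place of 4.86 at 3 h and 3.64 in place of 4.25 at 6 h.

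The steps between neighbouring recovery times differed in shape between the temperatures. After 42 °C BAG3 went up 1.89-fold from 0 to 1 h and 1.71-fold from 1 to 3 h, and was 1.53-fold lower at 6 h than at 3 h. After 44 °C it rose 5.58-fold from 0 to 1 h and 3.30-fold from 1 to 3 h, and went up 1.26-fold from 3 to 6 h. Of these 6 steps the 2 early ones after 44 °C passed 2-fold.

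Of the 6 BAG genes, 1 differed by 2-fold or more from the control at 42 °C and 0 h, where 3.34% of all genes did so in either direction. That gene was BAG3, as on each of the arrays that follow with a count of 1. The count was 1 of 6 at 1 h (3.42% of all genes), 1 of 6 at 3 h (5.07%) and 1 of 6 at 6 h (4.97%). After 44 °C it was 0 of 6 at 0 h (1.89%), and then 1 of 6 at 1 h (1.38%), at 3 h (2.57%) and at 6 h (5.15%). All 6 brightest probe sets lay above the floor on all 9 arrays, and among the 9913 genes of that kind 1.32% to 7.86% differed by 2-fold over the 12 comparisons. The median log2 fold of the 6 genes ran from -0.16 (42 °C, 6 h) to 0.24 (42 °C, 0 h), against medians of -0.056 to 0.022 for the 9913 genes over the 8 heated arrays. In this count the family stands on 1 gene.

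**Figure D2:**
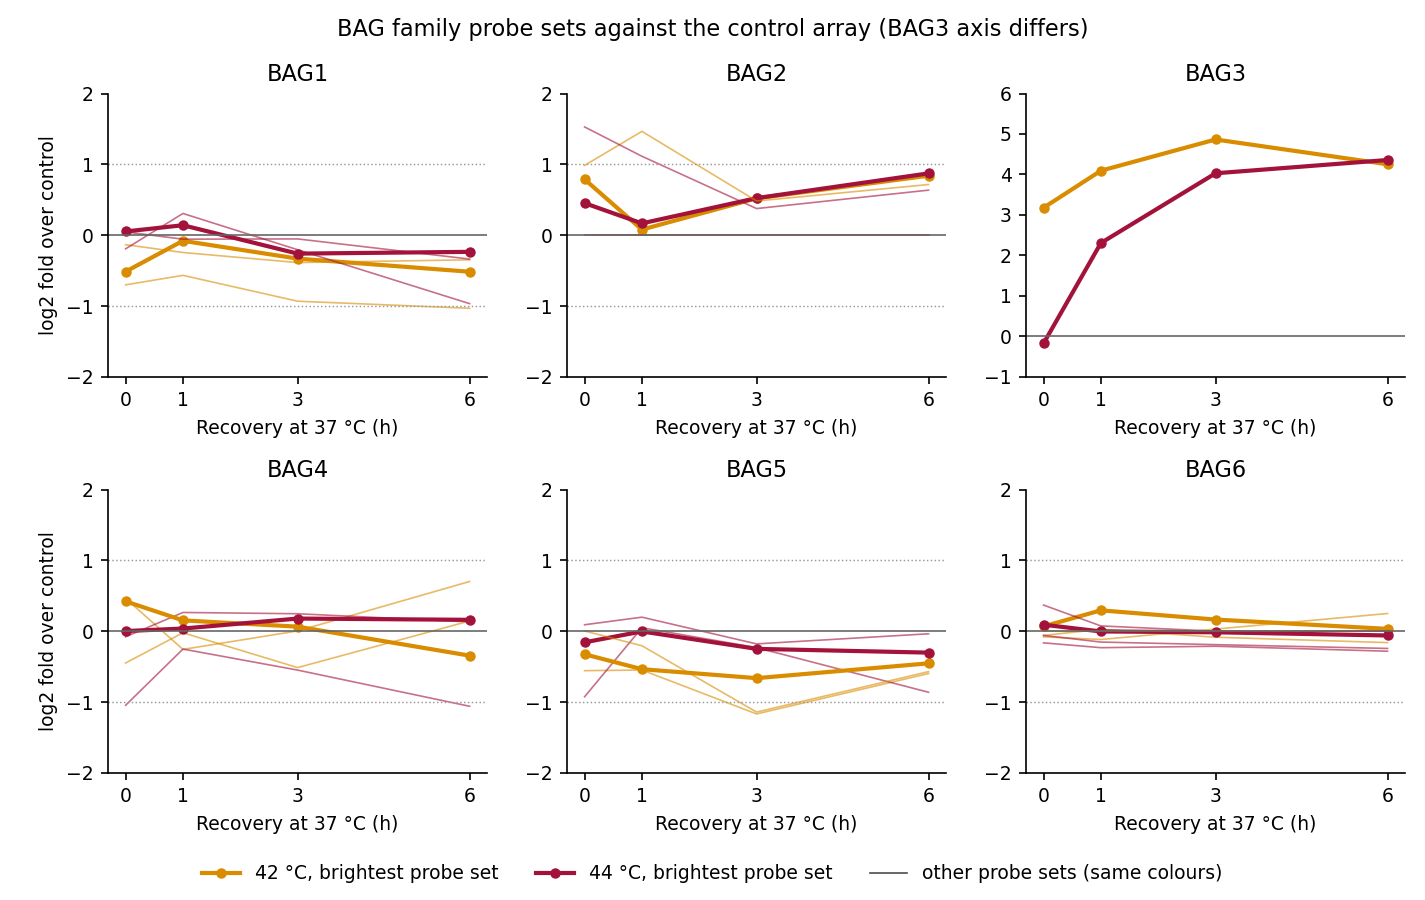
Log2 fold over the control array (y axis) against hours of recovery for the probe sets of each BAG gene, with thick lines with points for the brightest probe set, thin lines for the others, orange for 42 °C and red for 44 °C; dotted lines mark a log2 fold of 1 in either direction (not drawn for BAG3, whose axis is longer). BAG3 climbs to 4.86, while the brightest probe sets of the other 5 genes stay between -0.66 and 0.87.

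BAG2, the inhibitor of STUB1, lay above the control on all 8 heated arrays without reaching 2-fold by its brightest probe set, 209406_at. Its signal was 140 in the control. It was 242, 148, 200 and 250 at 0, 1, 3 and 6 h after 42 °C, and 191, 157, 201 and 256 after 44 °C. Both series had their lowest heated value at 1 h and their highest at 6 h, with log2 folds at 6 h of 0.84 after 42 °C and 0.87 after 44 °C. At 1 h after 42 °C the log2 fold of 0.079 became -0.12 with scaling to the median signal.

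A dimmer BAG2 probe set gave another time course. Probe set 230879_at had a signal of 22.1 in the control, then 43.8, 61.0, 30.9 and 36.3 after 42 °C and 63.8, 47.8, 28.7 and 34.4 after 44 °C. It was 2.76-fold higher at 1 h after 42 °C, 2.88-fold higher directly after 44 °C and 2.16-fold higher at 1 h after 44 °C. It too lay above the control on all 8 heated arrays, but it was highest early where the brightest probe set was highest late, and their correlation over 9 arrays was -0.052. The remaining BAG2 probe set was below the floor on all arrays.

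BAG5, the member with several BAG domains, lay below the control on all 8 heated arrays by its brightest probe set, 202985_s_at, with log2 folds from -0.66 to -0.0040. The smallest of these, at 1 h after 44 °C, lies far inside the spread between arrays, and without scaling BAG5 was above the control on 2 arrays. Its signal was 604 in the control. It was 482, 417, 382 and 441 at 0, 1, 3 and 6 h after 42 °C, and 542, 603, 508 and 490 after 44 °C. The lowest value came at 3 h after 42 °C, the array on which the scaled BAG3 signal was highest. On that array the other BAG5 probe sets passed 2-fold: 202984_s_at fell 2.25-fold, from 221 to 98.5, and 230427_s_at fell 2.21-fold, from 53.9 to 24.4. Over the 8 heated arrays, however, 202984_s_at lay above the control on 1 and 230427_s_at on 3. The probe sets of BAG5 varied together over the 9 arrays, with pairwise correlations of 0.58 to 0.82.

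BAG1, which binds BCL2 and the proteasome, was mostly below the control after 42 °C. By its brightest probe set, 202387_at, its signal was 373 in the control, then 261, 353, 296 and 261 after 42 °C and 387, 411, 311 and 317 after 44 °C. The lowest log2 folds were -0.51 at 0 h and -0.52 at 6 h after 42 °C. After 44 °C the arrays at 0 and 1 h lay slightly above the control and those at 3 and 6 h below it. With scaling to the median signal, 7 of 8 arrays rather than 6 were below the control. Probe set 229720_at, with a control signal of 118, fell 2.05-fold to 57.8 at 6 h after 42 °C and had a log2 fold of -0.97 at 6 h after 44 °C. The 3 BAG1 probe sets had pairwise correlations of 0.61 to 0.87.

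BAG4, the silencer of death domains, had no common direction among its probe sets. By the brightest, 228189_at, its signal was 492 in the control, then 659, 547, 514 and 387 after 42 °C and 493, 505, 557 and 550 after 44 °C. Its log2 folds lay between -0.35 and 0.42, above the control on 7 of 8 arrays, but on 3 of 8 with scaling to the median signal. Probe set 222909_s_at gave the opposite sign on all 8 heated arrays and fell 2.07-fold directly after 44 °C, from 120 to 58.0, and 2.09-fold at 6 h after 44 °C. The pairwise correlations of the 3 probe sets ran from -0.39 to 0.25, so the direction of BAG4 depends on the probe set.

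BAG6, the guard of tail-anchored proteins, stayed closest to the control. By its brightest probe set, 213318_s_at, its signal was 1221 in the control, then 1280, 1497, 1368 and 1249 after 42 °C and 1301, 1218, 1208 and 1171 after 44 °C. Its log2 folds ran from -0.061 to 0.29. Those of the probe sets 201255_x_at and 210208_x_at, whose suffix marks probes that may match other transcripts, ran from -0.28 to 0.25. The direction of such small values turned with the scaling and with the probe set. By the brightest probe set 5 of 8 arrays were above the control, and 4 of 8 with quantile normalisation. With the median over probe sets BAG6 was above the control on 0 of 8 arrays. Probe sets 201255_x_at and 210208_x_at lay below the control on 7 and 6 arrays. Probe set 230513_at was above the floor on 2 arrays only.

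The effect of temperature was read by setting each 44 °C array beside the 42 °C array with equal recovery. BAG3 was 10.2-fold lower after 44 °C than after 42 °C at 0 h, the gene with the 3rd largest fall of 19775, and 3.45-fold lower at 1 h, where its rank from the largest fall was 23. At 3 h the log2 difference was -0.84 and at 6 h 0.11. The gap thus narrowed with each recovery time and the order of the temperatures turned at 6 h, where the difference is far inside the spread described above. Without scaling the log2 difference was 0.18 at 3 h, the opposite sign, and 0.92 at 6 h.

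BAG3 was the 1 gene of 6 past 2-fold in that comparison at 0 h (2.35% of all genes) and at 1 h (2.28%), and the count was 0 of 6 at 3 h (2.00%) and at 6 h (2.22%). Next to BAG3, the largest differences at 0 h were 0.57 for BAG1, -0.42 for BAG4 and -0.34 for BAG2 in log2, and at 1 h 0.53 for BAG5. BAG5 was higher after 44 °C than after 42 °C at all 4 times, by 0.17, 0.53, 0.41 and 0.15 in log2, and so was BAG1, by 0.57, 0.22, 0.071 and 0.28. The BAG5 probe set 202984_s_at went the other way at 0 h (-0.37) and at 6 h (-0.26), and was higher after 44 °C at 1 and 3 h (0.60 and 0.94). These values pass neither 2-fold nor the 99th percentile of the spread. Of the other probe sets, BAG4 222909_s_at was 2.30-fold lower after 44 °C at 6 h.

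**Figure D3:**
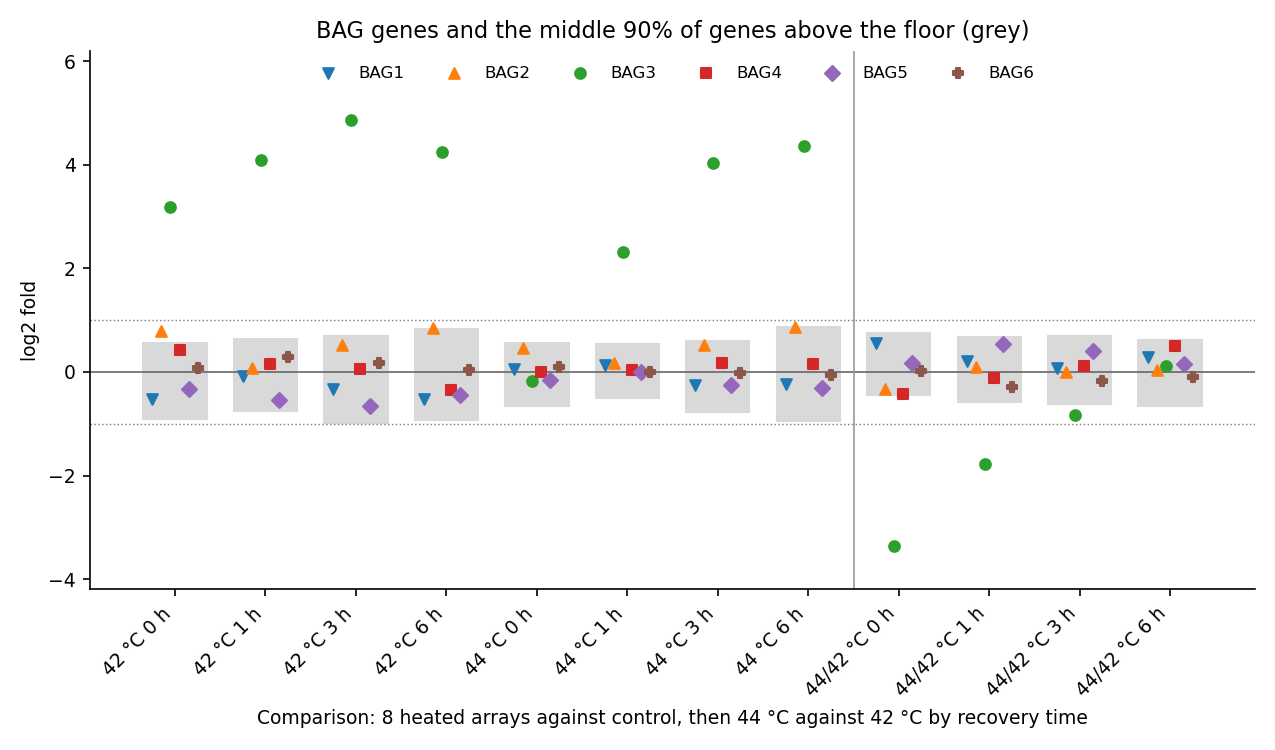
Log2 folds of the 6 BAG genes (symbols) in 8 comparisons with the control and 4 of 44 °C with 42 °C, over grey bars that span the middle 90% of the 9913 genes above the floor on all arrays; dotted lines mark a log2 fold of 1 in either direction. BAG3 lies far outside the bars on 7 heated arrays and falls to -3.35 in the comparison of temperatures at 0 h. The other 5 genes stay inside a log2 fold of 1, but not all inside the bars. BAG2 lies above the bar directly after 42 °C (0.789, where the bar ends at 0.560). At 6 h BAG2 lies just above it after 42 °C (0.840 against 0.834) and after 44 °C (0.873 against 0.867).

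Across the 9 arrays BAG3 varied against BAG5, with a Pearson correlation of -0.77 and a Spearman rho of -0.80, and less so with BAG1 (-0.64 and -0.63) and BAG2 (0.49 and 0.55). BAG1 and BAG2 had a correlation of -0.78 and BAG1 and BAG5 of 0.62. These coefficients describe 9 arrays that share 1 control and 1 scaling, and no test was run.

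BAG3 binds HSP70 as one of its exchange factors, so the other genes of that cycle were set beside it. Of 16 listed genes of the HSP70 and HSP110 family 13 were measured by a probe set of their own; HSPA1A, HSPA1B and HSPA8 had none and are given no value. On the arrays after 42 °C 4 of the 13 rose at each time, and after 44 °C 0, 2, 3 and 4 rose at 0, 1, 3 and 6 h. Over the same 8 comparisons 1.38% to 5.15% of all genes differed by 2-fold in either direction. None of the 13 fell on any heated array. HSPA12A and HSPA12B were at the floor in the control and HSPA2 near it, so these could not fall by 2-fold. The inducible HSP70 gene HSPA6 was 34.4-fold above the control directly after 42 °C, had a log2 fold of -0.074 directly after 44 °C, and peaked at 77.2-fold at 3 h after 42 °C. HSPA1L, an HSP70 gene beside the main inducible pair, had its highest log2 fold of 3.47 on the same array. HSPH1, of the HSP110 class of exchange factors, rose on 6 arrays, by up to 6.44-fold at 3 h after 42 °C, and its relative HSPA4L rose on 5, with a highest log2 fold of 2.62 at 6 h after 44 °C.

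Among 8 exchange factors of other families HSPH1 and HSPA4L were the only ones to pass 2-fold on any heated array. HSPA4 reached a log2 fold of 0.98 at 6 h after 42 °C, HSPBP1 0.49 at 0 h after 42 °C, the mitochondrial GRPEL1 0.40 at 6 h after 44 °C, and SIL1 of the endoplasmic reticulum had its lowest value, -0.66, at 6 h after 42 °C. Of the factors that exchange nucleotides on HSP70, BAG3 thus had the largest fold on 7 of 8 heated arrays. DNAJB1, the HSP40 partner that delivers clients to HSP70, was 8.28-fold above the control directly after 42 °C and 16.6-fold at 3 h, and 5.62-fold at 1 h after 44 °C.

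The partners of BAG3 in aggregate clearance were counted next. Of 21 listed genes 18 were measured, of which 1, 3, 4 and 2 rose and 2, 1, 0 and 0 fell at 0, 1, 3 and 6 h after 42 °C, where 3.34%, 3.42%, 5.07% and 4.97% of all genes differed in either direction. After 44 °C 0, 1, 3 and 3 rose and 2, 0, 1 and 0 fell, where 1.89%, 1.38%, 2.57% and 5.15% of all genes differed. The list medians lay between -0.023 and 0.16 in log2, near the median of 0 over all genes. Counts of 1 or 2 of 18 are too small to set apart from those shares. HSPB2 was below the floor on all arrays, and genes at the floor in the control could not fall. HSPB1, a small heat shock protein, rose on 6 arrays with a highest log2 fold of 2.04 at 3 h after 42 °C. CRYAB, of the same class, was below the floor in the control and its log2 folds, which are lower bounds, reached 3.14 on that array and 3.81 at 6 h after 44 °C. HSPB8, the small heat shock protein best known as the partner of BAG3, was above the floor on 4 arrays and passed 2-fold only at 3 h after 42 °C, with a lower bound of 1.37. The autophagy gene MAP1LC3B reached 1.16 at 6 h after 44 °C, and WIPI1 fell at 0 h at both temperatures, with log2 folds of -1.51 and -1.22. STUB1, the ubiquitin ligase that works with BAG proteins, stayed between -0.23 and 0.26.

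The partners of the other members were counted in the same way, on arrays where 1.38% to 5.15% of all genes differed from the control by 2-fold in either direction. Of 12 measured partners of BAG6, 0 rose and 0 fell on any heated array; UBQLN2, a ubiquitin shuttle, had the lowest value, -0.84 at 6 h after 42 °C, and GET3, the ATPase that takes tail-anchored proteins from the BAG6 complex, the highest, 0.57 at 0 h after 44 °C. Of 8 measured partners of BAG1 0 to 2 rose and 0 to 1 fell per array. PPP1R15A, which restores translation after stress, rose on 7 arrays with a highest log2 fold of 1.91 at 1 h after 42 °C, the growth factor gene HBEGF rose on 4, and BCL2 fell on 1, with a log2 fold of -1.06 at 6 h after 44 °C. Of 6 measured genes of the TNF receptor pathway that BAG4 acts on 0 to 1 rose and 0 to 1 fell per array, with list medians of -0.68 to 0.21 in log2. TNFRSF1A, the receptor itself, fell at 1 and 3 h after 42 °C (log2 folds of -1.22 and -1.19), TNFRSF10B fell at 0 h after 42 °C (-1.06), and CASP8 rose at 6 h at both temperatures (1.08 and 1.01). Of 5 measured partners of BAG2 and BAG5, 0 rose and 0 fell. One of them, LRRK2, was below the floor on all arrays, so no change could be seen. In these lists a gene at or near the floor in the control could not fall by 2-fold. The gene of heat shock factor 1, HSF1, stayed within -0.21 and 0.18 in log2 fold up to 3 h and fell 2.07-fold at 6 h after 42 °C, from a signal of 176 to 84.9.

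Genes whose log2 signals followed BAG3 most closely over the 9 arrays were sought among 3493 genes that lay above the floor on all arrays and spanned 2-fold or more. The 8 nearest by Pearson correlation were KLHL28 (0.98), the HSP40 gene DNAJA4 (0.98), ZFAND2A of the arsenite and heat response (0.98), DNAJB1 (0.98), the immediate early gene IER5 (0.97), the F-box gene FBXL14 (0.97), NXT2 of the mRNA export machinery (0.97) and BBS7 of the BBSome (0.96). Their sizes differed widely: at 3 h after 42 °C DNAJA4 had a log2 fold of 5.44 and ZFAND2A of 4.48, where NXT2 had 1.28 and BBS7 1.21. The 5 genes that ran most strongly against BAG3 were SLX4 (-0.98), NCBP2AS2 (-0.98), MED11 (-0.98), FAM20C (-0.97) and TMEM177 (-0.96). Of the 3493 genes, 47 had a coefficient of at least 0.9 and 53 of at most -0.9. Some of the named genes were dim. Signals ran from 17.8 to 50.2 for BBS7, from 23.9 to 57.9 for SLX4 and from 24.6 to 66.5 for FAM20C.

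The control and the 44 °C array at 0 h lie far below the other 7 arrays in BAG3 signal, which raises such coefficients. Over those 7 arrays alone the correlation was 0.99 for KLHL28, 0.95 for ZFAND2A, 0.94 for DNAJA4 and 0.74 for BBS7. Ordered over those 7 arrays, 1 of the 8 genes, KLHL28, remained among the nearest 8. By Spearman correlation over all 9 arrays ties left 16 genes at or level with the 8th place, among them 3 of the 8, KLHL28, DNAJA4 and ZFAND2A. KLHL28, which encodes a protein of the Kelch family, was thus the one gene close to BAG3 by each of these measures, with signals from 45.2 to 258.

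**Figure D4:**
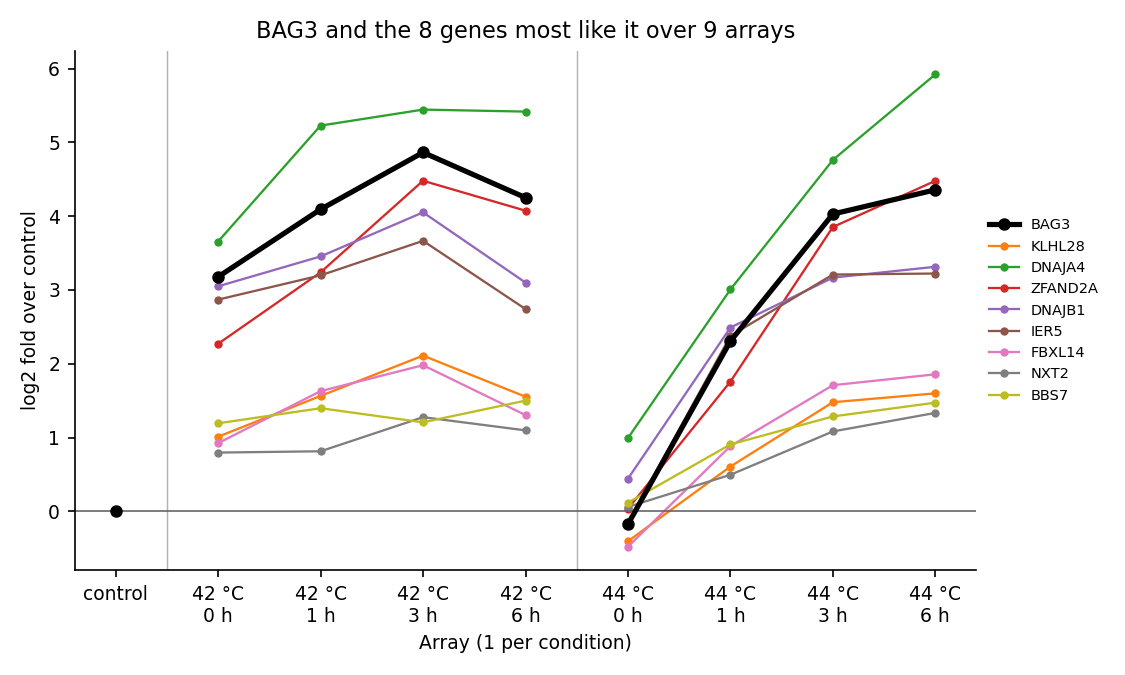
Log2 fold over the control (y axis) on each array (x axis, 1 per condition) for BAG3 (black, thick) and the 8 genes most like it by Pearson correlation over 9 arrays; lines join the arrays of 1 temperature. Directly after 44 °C the 9 genes lie between -0.48 (FBXL14) and 0.99 (DNAJA4, just short of 2-fold), with BAG3 at -0.17. At 3 h after 42 °C they lie between 1.21 and 5.44.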

How the data were processed

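U937 cells were profiled on 9 Affymetrix Human Genome U133 Plus 2.0 arrays, and samples were grouped by the treatment in their labels. The deposited table holds a linear intensity for every probe set on each array, which the authors computed with MAS5, per the submitters' processing notes. Which target MAS5 scaled to is not given in the sources used here. Each array was scaled to a trimmed mean of 100 (2% at each end) over 54613 probe sets that are not controls. Lower values were set to a floor, the median of all scaled signals (12.5), before conversion to log2. Such a floor shrinks folds of dim probe sets, and 1 factor per array leaves differences in the shape of the distribution. The platform annotation gives a single symbol for 41097 of 54675 probe sets, and several for 1801, while 11777 are not listed there. Each of 19775 genes was given its probe set of highest mean log2 signal. The 12 comparisons were 8 heated arrays against the control and 4 of 44 °C against 42 °C. No test was run, and the number of arrays limits the precision.

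Named genes were the 6 members, up to 6 genes per partner list with the largest log2 fold against the control, the 8 genes most and 5 least like BAG3, and HSPA6, DNAJB1, HSPH1 and HSF1. The members, lists and rules were chosen with earlier results of these data known. Motifs were searched as letters on both strands. Alternatives were other scalings, other floors, the median over probe sets and the 0 h array as baseline. Fold recovery was checked on simulated data for bright genes, with less noise than the spread between these arrays. That check bears on the scaling step and not on the precision of folds from single arrays. Python 3.11.15 with pandas 2.3.3 and numpy 2.4.6 was used.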

Additional observations from a re-analysis of the deposited data

How the results depend on the processing

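The number of BAG genes past 2-fold in the 12 comparisons was recomputed under 6 alternatives each, and 62 of 72 counts were unchanged. With the median over probe sets it was 2 at 1 h after 42 °C (BAG2 and BAG3), 2 at 3 h after 42 °C (BAG3 and BAG5), 2 at 0 h after 44 °C (BAG2 and BAG4) and 2 at 1 h after 44 °C (BAG2 and BAG3). Without scaling it was 3 at 3 h and 3 at 6 h after 42 °C (BAG1, BAG3 and BAG5), 2 at 6 h after 44 °C (BAG2 and BAG3), and, for 44 °C against 42 °C, 2 at 1 h, 4 at 3 h and 2 at 6 h. Unscaled values carry the difference in array level: the median gene above the floor shifted by -0.74 to 1.03 in log2 over the comparisons, and by -0.30 to 0.33 with scaling to the median. BAG3 passed 2-fold on the same 7 heated arrays under these 6 alternatives, with folds over the control from 4.58 to 29.1. The 0 h array as baseline, a further alternative, was not among the 6. Against the 0 h array of the same temperature, BAG3 at 1 h was 1.89-fold higher after 42 °C, short of 2-fold, and 5.58-fold higher after 44 °C. The other floors (2.91 and 79.0) could change neither the BAG3 folds nor the counts above. They lay below every signal of the brightest BAG probe sets, of which the lowest was 140. The median over probe sets could not change BAG3, which has 1 probe set. Of the 8 genes most like BAG3, 3 remained by Spearman correlation (ties kept), 7 with quantile normalisation and 1 over 7 arrays, an alternative chosen after seeing the data. The search for 3 units of the heat shock element gave 0 BAG genes. No called value changed sign. Of the values of single genes under other settings, 378 moved by less than the spread of the 44 °C 0 h array from the control. These include the 72 at each of the other floors, where no value could move. Of the other 90, 43 came without scaling, 19 with the median over probe sets and 18 with the 0 h array as baseline, which is a different comparison. Scaling to the median gave 8 and quantile normalisation 2. The cause of single moves was not tested. No paired analysis was possible because each group has 1 array. The dimmest BAG probe sets are limited by their signal over background, 230750_at and 230513_at most of all.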

Other observations

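The nearest protein-coding genes on either side of each BAG gene in the RefSeq table (GRCh38.p14, used for order alone) were looked up as a description. Beside BAG3, TIAL1, an RNA-binding protein, had log2 folds of -0.30 to 0.087 on the heated arrays, and INPP5F, a phosphoinositide phosphatase, had 0.015 to 0.96, with its highest values at 6 h, 0.96 after 42 °C and 0.94 after 44 °C. Neither passed 2-fold on any of the 8 heated arrays. Beside BAG2, RAB23, a small GTPase, was above the control on all 8 heated arrays, with log2 folds from 0.49 to 1.17, and ZNF451 ran from -0.38 to 0.37. Beside BAG6, PRRC2A was 2-fold or more below the control at 6 h at both temperatures (-1.23 after 42 °C and -1.04 after 44 °C), while BAG6 itself had 0.032 and -0.061. Beside BAG5, the tRNA methyltransferase subunit TRMT61A had log2 folds of -1.15 and -1.11 at 3 and 6 h after 42 °C. These genes were chosen by position, after the values of the BAG genes were known.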
